A study of Mus musculus with 9 samples.

Results

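Inflammasomes are protein platforms that turn signs of infection or damage into an inflammatory form of cell death, and 10 of their genes are described here: the sensors Nlrp3 and Nlrc4, the kinase Nek7, the adaptor Pycard, the caspases Casp1 and Casp4, the membrane genes Gsdmd and Ninj1, and the cytokines Il1b and Il18. They were chosen by name, as the rows of the deposited count table that carry these symbols, and all 10 were found among its 21899 genes. The table's own annotation places 9 of the 10, all but Ninj1, in the NOD-like receptor signalling pathway, which holds 203 of its genes. The RNA was taken from the paraventricular thalamus (PVT), a midline nucleus with a role in wakefulness, and the mice were wild type. Mice in 3 groups of 3 libraries were killed 1 day after an intraperitoneal injection of phosphate-buffered saline (PBS), 1 day after lipopolysaccharide (LPS), the cell wall component of Gram-negative bacteria, or 7 days after LPS. The labels give no dose, sex or age. The 9 libraries include no PBS group at 7 days. Time after injection and LPS thus cannot be told apart in the comparison of LPS at 7 days with PBS at 1 day. The labels do not say that the libraries of a group come from separate mice, and p-values then measure only the spread between these libraries, which may be technical.

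In the canonical route, a sensor such as NLRP3 binds the kinase NEK7 and recruits the adaptor ASC, the product of Pycard, which gathers caspase-1. Caspase-1 cuts the precursors of interleukin-1β and interleukin-18 and opens gasdermin D, whose freed end forms pores in the plasma membrane, after which NINJ1 breaks the membrane. In the non-canonical route, mouse caspase-11, the product of Casp4, binds LPS inside the cell and cuts gasdermin D directly. In the brain these genes are known mainly from microglia, whereas Il18 transcripts are also known from neurons of the medial habenula, which lies next to the PVT.

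Casp1 and Casp4 are neighbours on chromosome 9 and follow the same strand, with 1537 bases between them in GRCm39. Casp4 had its highest counts in the 3 libraries at 1 day after LPS and Casp1 did not pass the test, so the stretches before their start sites are shown side by side, with that of Nlrp3, a sensor that rose. Each is the stretch from 200 to 26 bases upstream of a start site, 175 bases on the plus strand, from RefSeq on GRCm38.p6, with matches to the NF-kB consensus in capitals. The Casp4 stretch is chr9:5308649-5308823, the Casp1 stretch is chr9:5298317-5298491 and the Nlrp3 stretch is chr11:59541369-59541543.
Casp4: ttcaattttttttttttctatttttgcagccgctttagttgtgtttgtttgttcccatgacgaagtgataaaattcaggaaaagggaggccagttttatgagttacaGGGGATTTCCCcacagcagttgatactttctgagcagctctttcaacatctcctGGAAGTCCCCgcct
Casp1: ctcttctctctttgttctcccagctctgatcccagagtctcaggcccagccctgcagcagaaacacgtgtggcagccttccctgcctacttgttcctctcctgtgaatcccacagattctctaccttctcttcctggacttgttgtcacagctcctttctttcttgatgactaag
Nlrp3: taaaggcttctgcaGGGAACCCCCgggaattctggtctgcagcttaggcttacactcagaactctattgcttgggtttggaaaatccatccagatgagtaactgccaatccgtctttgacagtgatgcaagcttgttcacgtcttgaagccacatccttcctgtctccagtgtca
In the Casp4 stretch, overlapping matches covered bases 93 to 83 upstream of the start and another covered bases 39 to 30. Of the Nlrp3 starts, the one with a match is shown, and its single match lay 186 to 177 bases upstream. The other Nlrp3 start had no match. Nek7 and Pycard, which also rose, had no match either. Windows of the 250 bases before a start were at hand for 9 of the 10 genes, 11 windows in all, with Gsdmd missing, and on both strands the NF-kB consensus occurred before Casp4 and before 1 of 2 Nlrp3 starts. Over all 32851 windows of that length, 7.25% held it. The core of the interferon-stimulated response element (GAAA, any 2 bases, GAAA), found in 2.98% of all windows, occurred in no window of the 9 genes. A match is a description of the letters and not evidence of binding.

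All 9 libraries held between 13211422 and 17210526 counts assigned to genes. Of the 10 genes, 9 passed the filter on low counts and were tested among 14837 genes. Il1b did not pass, and Casp4 passed only because of its 3 libraries at 1 day after LPS, so it entered the test as a gene that was higher there. No p-value is given for Casp4 or for the pathway genes that passed in the same way, which are described by their counts. Levels are given as CPM, the count of a gene per 1000000 counts of its library after scaling by the trimmed mean of M-values. Fold changes are on the log2 scale with their standard error (SE), from the quasi-likelihood test of edgeR, with p-values adjusted for the 14837 genes tested in a comparison (Benjamini and Hochberg) and a threshold of 0.05. The groups also differed in Y-linked and in regional transcripts. The Y-linked genes Ddx3y, Eif2s3y, Uty and Kdm5d had 1 count in total in the PBS libraries, against a summed level of 81.5 to 85.2 CPM at 1 day and 90.5 to 102 CPM at 7 days after LPS, so that sex and LPS cannot be told apart in either comparison with PBS. Cerebellar markers summed to 369 to 378 CPM after PBS, 307 to 326 CPM at 1 day and 1616 to 1648 CPM at 7 days after LPS. All 10 were higher at 7 days in both comparisons. Gabra6 had 0.0861, 0.0203 and 164 CPM on average in the 3 groups, and Cbln3 had 0.483, 0.701 and 315 CPM. PVT and midline thalamus markers summed to 682 to 693 CPM after PBS. After LPS they summed to 478 to 494 CPM at 1 day and 545 to 568 CPM at 7 days. The regional make-up of the tissue thus cannot be told apart from LPS at 1 day against PBS. Nor can it be told apart from time or LPS in either comparison with the 7-day libraries. The part of these differences in the results below was not tested.

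At 1 day after LPS, the sensor Nlrp3, its partner Nek7 and the adaptor Pycard were higher than after PBS, and the LPS-binding caspase Casp4, which had to be higher there to enter the test, had 68 counts against 10. Casp1, Gsdmd, Ninj1 and Nlrc4 did not pass the test, and Il18 was lower. At 7 days Nlrp3, Nek7 and Pycard were lower than at 1 day and did not pass the test against PBS, Casp4 had 15 counts, and Il18 was lower than after PBS. Counted over the 8 tested genes other than Casp4, 3 rose and 1 fell at 1 day against PBS (4 and 1 of 9 with Casp4), where 24.9% of all tested genes rose and 24.2% fell. The libraries did not overlap for 4 of the 8, against 54.5% of all tested genes. At 7 days against PBS edgeR called 0 risen and 1 fallen, against 16.8% and 18.9% of all tested genes. No further gene was added at an unadjusted p under 0.05 or by DESeq2. At 7 days against 1 day it called 0 risen and 3 fallen of the 8 (0 and 4 of 9 with Casp4), against 27.5% and 29.1%. There an unadjusted p under 0.05 gave 0 risen and 5 fallen of the 9, and DESeq2 0 and 4. The libraries of 7 days and 1 day did not overlap for 3 of the 8, against 60.6% of all tested genes. The shares of genes called are thus high throughout these data. The median log2 change at 1 day was 0.35 over the 8 genes and 0.60 with Casp4, beside -0.01 over all tested genes.

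**Figure D1:**
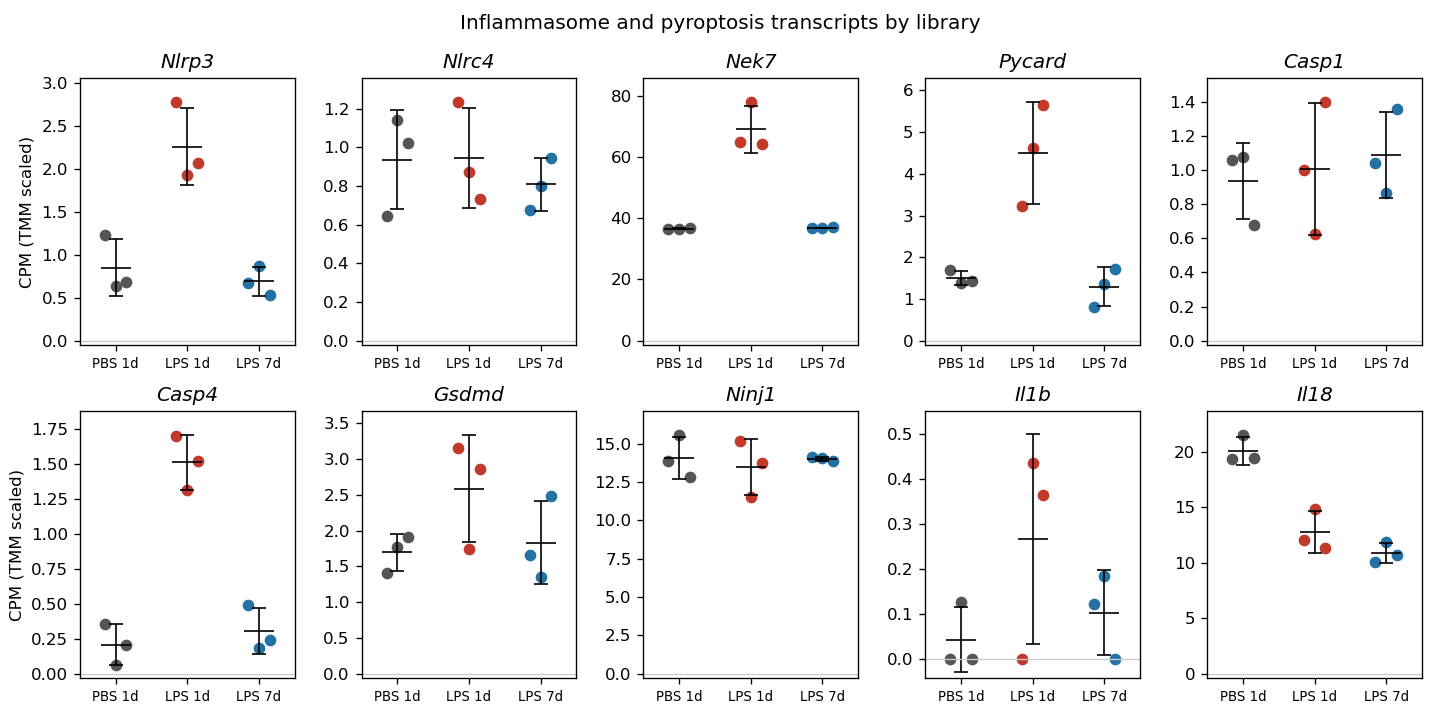
CPM of each of the 10 genes (vertical axis, scaled by TMM, starting at or just under 0, a different scale in each panel) in the 3 libraries of PBS 1d, LPS 1d and LPS 7d. Each point is a library, and the bars are the mean and SD of 3 libraries. Nlrp3, Nek7, Pycard and Casp4 stand higher at LPS 1d than in both other groups, Il18 is highest in PBS 1d, and Nlrc4, Casp1 and Ninj1 overlap throughout.

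Nlrp3 (ENSMUSG00000032691, chr11:59432394-59457782 on the plus strand of GRCm39), the sensor that responds to potassium efflux and membrane damage, had 1.23, 0.633 and 0.682 CPM in the PBS libraries. At 1 day after LPS it had 2.77, 1.93 and 2.07 CPM, and at 7 days 0.674, 0.864 and 0.532 CPM. All 3 libraries at 1 day lay above every other library, and those of PBS and 7 days overlapped. The rise at 1 day was 1.37 ± 0.35 (SE, edgeR adjusted p = 0.000865), a 2.59-fold increase. These values rest on 41 counts after PBS and 101 at 1 day, and counting error alone gives a ratio between 1.77 and 3.80 (95% interval). From 1 day to 7 days Nlrp3 fell by 1.69 ± 0.36 on the log2 scale (edgeR adjusted p = 6.84e-05). This fall and the rise before it share the LPS 1d libraries.

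Nek7 (ENSMUSG00000026393, chr1:138410613-138547879, minus strand), the mitotic kinase that bridges NLRP3 subunits, was the most abundant of the 10 by counts. It had 36.3, 36.5 and 36.6 CPM after PBS, 64.7, 77.8 and 64.3 CPM at 1 day after LPS and 36.7, 36.8 and 36.9 CPM at 7 days. The PBS and 7-day libraries lay within 1 CPM of each other, and the 1-day libraries all stood far above them. The increase at 1 day was 0.92 ± 0.07 (edgeR adjusted p = 1.57e-16), 1.89-fold, and ranked 146 among all tested genes by p-value. The 7-day libraries did not overlap those of PBS, yet the difference was 0.01 ± 0.07 with an interval of -0.13 to 0.15 (edgeR adjusted p = 0.909). Against PBS at 7 days, 44.2% of all tested genes did not overlap.

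Nlrc4 (ENSMUSG00000039193, chr17:74732433-74766137, minus strand), which reports bacterial flagellin and secretion needles passed on by NAIP proteins, had 0.646 to 1.14 CPM after PBS. It had 0.730 to 1.23 CPM at 1 day and 0.674 to 0.947 CPM at 7 days after LPS. The 3 groups overlapped in full. The difference at 1 day was 0.00 ± 0.45, and its interval of -0.91 to 0.91 leaves room for changes of nearly 2-fold either way at this depth of 42 to 44 counts a group.

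Pycard (ENSMUSG00000030793, chr7:127588880-127593039, minus strand), which encodes the adaptor ASC, had 1.70, 1.39 and 1.43 CPM after PBS. At 1 day after LPS it had 3.24, 4.61 and 5.66 CPM, and at 7 days 0.797, 1.36 and 1.72 CPM. Every library at 1 day was above all others, though these 3 also spread the most, with an SD of 1.21 CPM. The rise at 1 day was 1.58 ± 0.26 (edgeR adjusted p = 1.64e-06) and the fall from 1 day to 7 days 1.81 ± 0.27 (edgeR adjusted p = 9.45e-08). At 7 days against PBS the difference was -0.23 ± 0.32 (edgeR adjusted p = 0.622).

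Casp4 (ENSMUSG00000033538, chr9:5308828-5336783, plus strand) binds LPS through its product, caspase-11. It had 0.353, 0.0633 and 0.204 CPM after PBS, 1.70, 1.31 and 1.52 CPM at 1 day and 0.490, 0.185 and 0.237 CPM at 7 days after LPS. As counts these are 6, 1 and 3 after PBS, 22, 21 and 25 at 1 day, and 8, 3 and 4 at 7 days. The 1-day libraries held at least 21 counts each and no other library more than 8. The ratio of summed counts at 1 day to PBS was 7.11 with a counting interval of 3.64 to 15.5, and the fitted log2 difference was 2.79 ± 0.52. From 1 day to 7 days the summed ratio was 0.203 (0.108 to 0.359), and the fitted difference was -2.28 ± 0.47. These sizes are a description, since the gene passed the filter through the libraries in which it is high. Against PBS at 7 days the fitted difference was 0.51 ± 0.69, with an interval from -0.87 to 1.90.

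Casp1 (ENSMUSG00000025888, chr9:5298508-5307290, plus strand), the caspase that matures the cytokines, had 1.06, 1.08 and 0.682 CPM after PBS, 1.00, 0.623 and 1.40 CPM at 1 day and 1.04, 0.864 and 1.36 CPM at 7 days after LPS. These 3 groups overlapped, with 45, 46 and 54 counts. The difference at 1 day was 0.10 ± 0.40 (edgeR adjusted p = 0.859), with an interval of -0.70 to 0.89. The difference between the responses of Casp1 and Casp4 was not itself tested. Across the 9 libraries their log2 levels had a Pearson correlation of 0.006, given as a description over libraries that share groups.

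Gsdmd (ENSMUSG00000022575, chr15:75734176-75739257, plus strand), the pore former, had 1.41, 1.77 and 1.91 CPM after PBS, 3.16, 1.74 and 2.86 CPM at 1 day and 1.65, 1.36 and 2.48 CPM at 7 days after LPS. Of the 1-day libraries, 2 lay above all PBS libraries and the other lay among them. The difference at 1 day, 0.60 ± 0.29, did not pass (edgeR adjusted p = 0.0777). Without LPS 1d replicate 2, the low library, it was 0.83 with an adjusted p of 0.0251, so that this library decides the call. At 7 days against 1 day the difference was -0.48 ± 0.28 (edgeR adjusted p = 0.143), which passed without LPS 1d replicate 2 (-0.70, adjusted p = 0.0447) or without LPS 7d replicate 3 (-0.76, adjusted p = 0.0430).

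Ninj1 (ENSMUSG00000037966, chr13:49340961-49349720, plus strand), which ruptures the membrane of dying cells, had 13.9, 15.6 and 12.8 CPM after PBS. It had 15.2, 11.5 and 13.8 CPM at 1 day and 14.2, 14.1 and 13.9 CPM at 7 days after LPS. The groups overlapped, and with 608 to 694 counts a group the intervals were narrow. The difference ran from -0.29 to 0.15 at 1 day and from -0.22 to 0.21 at 7 days, both against PBS. Changes larger than these lay outside the 95% intervals.

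Il1b (ENSMUSG00000027398, chr2:129206490-129213059, minus strand), the best known product of the inflammasome, was close to the limit of detection. It had 0, 2 and 0 counts after PBS, 0, 7 and 6 counts at 1 day and 2, 3 and 0 counts at 7 days after LPS. Each group held at least 1 library without a count, and the groups overlapped. A count of 0 in a library allows up to 3 counts, for counting error only. The ratio of summed counts at 1 day to PBS, 13 against 2, was 6.79 with a counting interval of 1.54 to 62.0. The exact permutation test over libraries, two-sided, gave p = 0.4 for that comparison, where 3 against 3 libraries cannot go below 0.1. With 3 libraries a group that test could not have reached the threshold whatever the counts were, and the counting interval holds for these libraries only.

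Il18 (ENSMUSG00000039217, chr9:50466127-50493140, plus strand) encodes a cytokine that is kept ready as a precursor and released by caspase-1. It had 19.3, 21.5 and 19.4 CPM after PBS, 12.1, 14.9 and 11.3 CPM at 1 day and 10.1, 11.8 and 10.7 CPM at 7 days after LPS. Every library after LPS lay below every PBS library, and the 1-day and 7-day libraries overlapped. Against PBS it fell by 0.65 ± 0.11 at 1 day (edgeR adjusted p = 1.29e-06) and by 0.89 ± 0.11 at 7 days (edgeR adjusted p = 1.37e-09), to 0.637 and 0.541 of the PBS level, and both comparisons share the PBS libraries. The change from 1 day to 7 days, -0.24 ± 0.11, did not pass (edgeR adjusted p = 0.0762), but passed without LPS 1d replicate 3 (-0.32, adjusted p = 0.0296) or LPS 7d replicate 2 (-0.30, adjusted p = 0.0495). In bulk tissue, fewer cells of a type and less RNA per cell cannot be told apart. A list of 7 habenula markers, written after these values were known, also stood lower after LPS, at 77.2 to 82.0 CPM summed after PBS, 54.2 to 56.1 CPM at 1 day and 52.4 to 55.5 CPM at 7 days. In each comparison with PBS 2 of the 7 fell and 5 did not pass. Of all tested genes 24.2% fell at 1 day and 18.9% at 7 days. Among those that did not pass, Chrnb3 was higher at both times and Chrnb4 at 1 day. Most of the sum is Nwd2, with 54.5, 33.7 and 33.9 CPM on average. The sum of the PVT and midline thalamus list was lower too, with 682 to 693 CPM after PBS and 478 to 494 CPM at 1 day. At 7 days it was 545 to 568 CPM. Of its 10 genes 0 rose and 7 fell at 1 day, beside 24.9% and 24.2% of all tested genes. At 7 days against PBS 1 rose and 6 fell, beside 16.8% and 18.9%. The gene that rose was Calb2, with 97.1 CPM after PBS and 160 CPM at 7 days on average. The part of either list in the fall of Il18 was not tested. On the opposite strand Il18 is overlapped by Tex12 over 4507 bases and by Bco2 over 355 bases. Whether the counting used strand is not given in the sources used here, but Tex12 had 11 and Bco2 189 counts over all libraries.

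**Figure D2:**
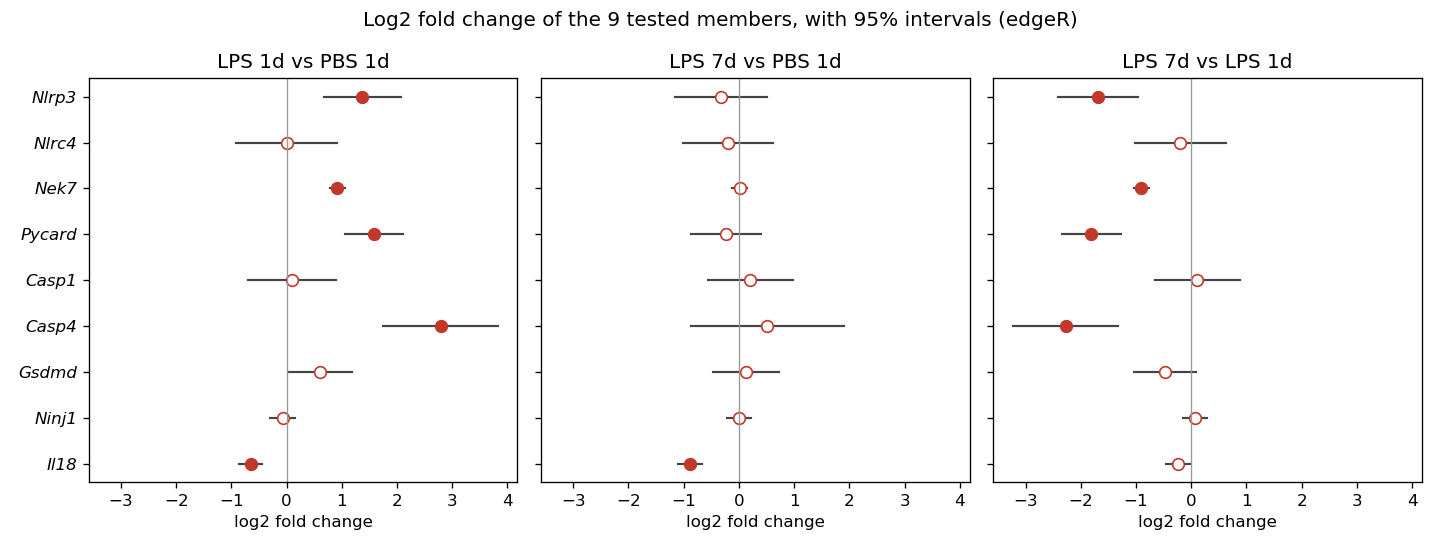
Log2 fold change (horizontal axis) of the 9 tested genes in the 3 comparisons, with 95% intervals from edgeR. Filled points passed the threshold on the adjusted p and open points did not; Casp4 entered the test only because it was high at LPS 1d. Casp4, Pycard, Nlrp3 and Nek7 lie to the right of 0 at LPS 1d against PBS 1d and to the left at LPS 7d against LPS 1d, while at LPS 7d against PBS 1d the interval of Il18, -1.10 to -0.67, is the one that excludes 0.

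Levels can be set against each other between genes only per gene length, as fragments scaled by length and by the total of the library (FPKM). After PBS the order was Il18 (19.4 ± 1.25, SD, n = 3), Ninj1 (8.92 ± 0.890), Nek7 (4.92 ± 0.0434), Gsdmd (0.710 ± 0.111) and Pycard (0.395 ± 0.0424), each with a range clear of the next. Below them came Casp1 (0.297), Nlrp3 (0.208) and Nlrc4 (0.194), whose neighbours in the order overlapped, and then Casp4 (0.0553) and Il1b (0.0221), which overlapped as well. Set against the tested genes, Il18 stood at the 83.9th percentile of FPKM after PBS, Ninj1 at the 65.5th and Nek7 at the 48.4th. The other genes whose products caspase-1 cuts stood far lower, Gsdmd at percentile 14.1 and Il1b at percentile 0.310. Pycard stood at percentile 8.41, and the sensors and caspases stood at the 6.24th percentile or lower. Il18 and Gsdmd thus stood above every sensor and caspase. Il1b stood below them, with a range that overlapped that of Casp4. At 1 day after LPS, Nek7 (9.18 ± 1.03 FPKM) reached Ninj1 (8.44 ± 1.15), with overlapping ranges. Pycard (1.16 ± 0.314) reached Gsdmd (1.07 ± 0.308), and Casp4 (0.399 ± 0.0511) overlapped Casp1 (0.316 ± 0.122). At 7 days the order was that of PBS except that Casp1 (0.355) and Pycard (0.346) had changed places, and their ranges overlapped.

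**Figure D3:**
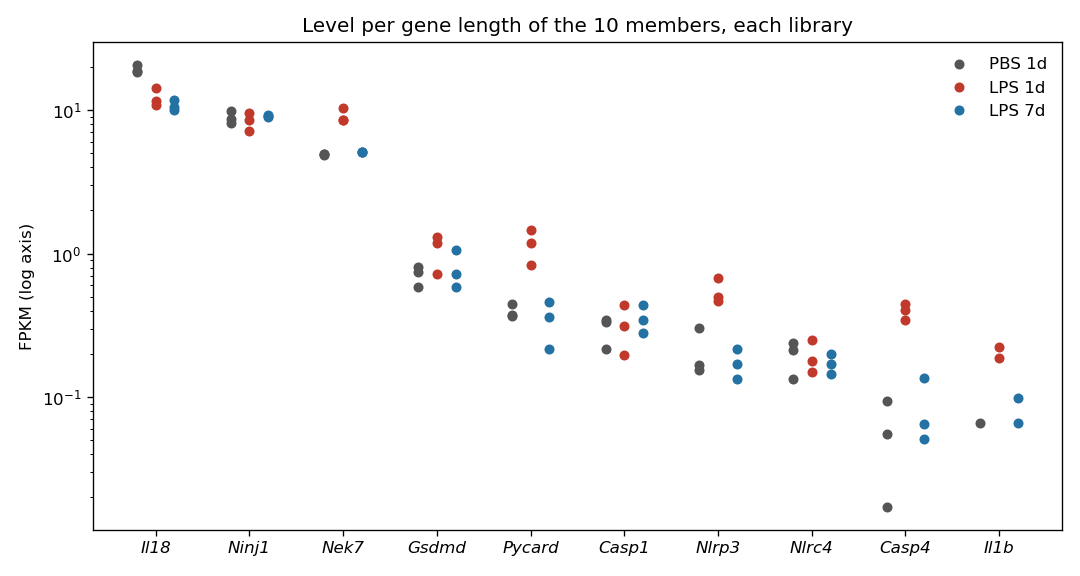
FPKM of the 10 genes in each library (log axis), ordered by their mean after PBS, with the 3 groups side by side. The 4 libraries in which Il1b is listed at 0 are left out. Il18, Ninj1 and Nek7 lie above 4 FPKM in every library and the other genes below 2.

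Over the 9 libraries, Nlrp3, Pycard, Casp4 and Nek7 had pairwise Pearson correlations of 0.780 to 0.907 on log2 CPM. Il18 ran between -0.444 and 0.255 with the other 8. These are descriptions over libraries that share groups. Among all genes of at least 1 CPM on average, the ones most like Nlrp3 were Herc1 (r = 0.991), Ubr2 and Setbp1. Those most like Pycard were Hirip3 (0.993), Mia3 and Srrm1, those most like Casp4 were Tubgcp3 (0.980), Kdsr and Efr3b, and those most like Nek7 were Scn1a (0.992), Slc25a46 and Il6ra. Kcnab1 (0.981), Ap1s1 and Crip2 were closest to Il18. The number of genes above 0.95 was 342 for Nek7, 60 for Pycard, 53 each for Nlrp3 and Casp4, and 25 for Il18. For Gsdmd (Kcnj8, 0.947), Casp1 (Nfkbid, 0.933) and Nlrc4 (Ppwd1, 0.883) no gene reached 0.95, and for Ninj1 only Pop7 did (0.960).

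The other genes of the pathway were described through 9 lists with 81 symbols, of which 67 were tested. At 1 day against PBS 31 of the 67 rose and 10 fell, beside 24.9% and 24.2% of all tested genes, with a median log2 change of 0.33. At 7 days against PBS 4 rose and 8 fell, beside 16.8% and 18.9%, with a median of 0.05. At 7 days against 1 day 12 rose and 26 fell, beside 27.5% and 29.1%, with a median of -0.18. The medians over all tested genes were -0.01, 0.00 and 0.00. Of the 67, 5 passed the filter only with their LPS 1d libraries (Naip1, Il1a, Il1r2, Mlkl and Zbp1) and Nlrp1a only with its PBS libraries. Without these 6, 28 of 61 rose and 9 fell at 1 day against PBS, 4 and 8 at 7 days against PBS, and 11 and 21 at 7 days against 1 day.

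Of the other sensors, 4 of 7 tested rose at 1 day and 1 fell, or 3 and 0 of 5 without Naip1 and Nlrp1a. Of all tested genes 24.9% rose and 24.2% fell. Aim2, the sensor of cytosolic DNA, rose by 1.28 ± 0.25 (edgeR adjusted p = 2.51e-05), from 1.67 to 4.06 CPM. The NAIP genes detect bacterial ligands for NLRC4, and Naip5 rose by 1.24 ± 0.38 (edgeR adjusted p = 0.00615). Naip1 had 18 counts after PBS, 52 at 1 day and 18 at 7 days. Its call at 1 day is not a result, since it passed the filter only with its LPS 1d libraries. That call was also lost without PBS 1d replicate 1 or LPS 1d replicate 2. Nlrp1a had 42 counts after PBS, 4 at 1 day and 39 at 7 days. The NAIP and NLRP1 genes lie in families of close copies, so their counts are uncertain where reads were split between copies.

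The caspase-11 licensing list holds guanylate-binding proteins and immunity-related GTPases, interferon-induced enzymes that expose LPS on bacterial membranes to caspase-11. All 8 tested members rose at 1 day, beside 24.9% of all tested genes, with a median of 2.02. At 7 days 5 of the 8 were below PBS, beside 18.9% of all tested genes, with a median of -0.42. Irgm1 rose by 2.55 ± 0.10 (edgeR adjusted p = 7.98e-27), from 7.24 ± 0.45 to 42.6 ± 1.4 CPM (SD, n = 3), and stood at 6.68 ± 1.2 CPM at 7 days. Gbp2 rose by 2.41 ± 0.13 (edgeR adjusted p = 1.58e-21), from 4.62 to 24.6 CPM, and at 7 days was 0.65 ± 0.18 below PBS on the log2 scale (edgeR adjusted p = 0.00241), at 2.93 CPM. Gbp3 and Gbp5 rose by 1.90 ± 0.10 and 2.23 ± 0.15. At 7 days Gbp3 was lower than after PBS (-0.46, edgeR adjusted p = 0.00403) and Gbp5 did not pass (-0.39, edgeR adjusted p = 0.108), but passed without LPS 7d replicate 1 (-0.52, adjusted p = 0.0472). These families too contain close copies.

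Among the priming genes, which carry the LPS signal to transcription, 7 of 12 rose at 1 day, beside 24.9% of all tested genes. Cd14 and Lbp, which hand LPS to its receptor, rose by 1.93 ± 0.18 (edgeR adjusted p = 8.13e-13) and 1.46 ± 0.11 (edgeR adjusted p = 1.22e-16). Irf8, a transcription factor of myeloid cells, rose by 1.06 ± 0.17, and Rela, an NF-kB subunit, by 0.45 ± 0.08. At 7 days Lbp was below PBS, at 7.08 against 10.4 CPM (-0.55 ± 0.13, edgeR adjusted p = 0.000414).

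The list of NLRP3 triggers and regulators had 2 of 10 tested up and 3 down at 1 day, beside 24.9% and 24.2% of all tested genes. Txnip, a thioredoxin-binding protein that can engage NLRP3, went from 14.7 CPM after PBS to 31.4 CPM at 1 day (1.09 ± 0.10, edgeR adjusted p = 9.71e-14) and 8.57 CPM at 7 days (-0.78 ± 0.11 against PBS, edgeR adjusted p = 1.03e-07). Serpinb1a, a protease inhibitor that restrains inflammatory caspases, showed the opposite order, with 8.16, 4.45 and 13.2 CPM. It fell by 0.87 ± 0.15 at 1 day (edgeR adjusted p = 3.54e-06) and rose by 0.70 ± 0.13 at 7 days (edgeR adjusted p = 1.01e-05), both against PBS. Panx1, a channel that opens during cell death, was lower at both times, by -0.32 ± 0.09 at 1 day (edgeR adjusted p = 0.00318) and -0.45 ± 0.09 at 7 days (edgeR adjusted p = 8.73e-05). The Panx1 call at 1 day was lost without PBS 1d replicate 3 (-0.23, adjusted p = 0.0594). Brcc3, which deubiquitinates NLRP3, rose by 0.30 ± 0.08 at 1 day (edgeR adjusted p = 0.00112).

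Of 7 other caspases, 2 rose at 1 day and 0 fell, where 24.9% of all tested genes rose. Casp8 rose by 0.62 ± 0.23 (edgeR adjusted p = 0.0205) and Casp6 by 0.63 ± 0.24 (edgeR adjusted p = 0.0297). Both calls were lost when single libraries were left out: Casp8 without PBS 1d replicate 2 (adjusted p = 0.0971) or LPS 1d replicate 3 (0.0785), Casp6 without PBS 1d replicate 1 (0.131) or 2 (0.0762) or LPS 1d replicate 1 (0.0562) or 2 (0.0873). With DESeq2 the Casp6 call was lost as well (0.63, adjusted p = 0.0567). Casp12, which lies in the same gene cluster, had a difference of 0.94 ± 0.41 that did not pass (edgeR adjusted p = 0.0513), and Casp2 one of 0.16 ± 0.10 (edgeR adjusted p = 0.213). Casp12 passed without PBS 1d replicate 2 (1.35, adjusted p = 0.0224) or LPS 1d replicate 1 (1.18, adjusted p = 0.0202), with a filter of at least 1 CPM in 3 libraries (edgeR adjusted p = 0.0445) and in a fit of only the groups compared (edgeR adjusted p = 0.0461). Of the other gasdermins only Gsdme was tested, and it fell by 0.27 ± 0.09 at 1 day (edgeR adjusted p = 0.0105), a call lost without PBS 1d replicate 2 (-0.22, adjusted p = 0.0707).

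The membrane repair list, subunits of the ESCRT machinery that sheds gasdermin pores, had 2 of 8 up and 2 down at 1 day, beside 24.9% and 24.2% of all tested genes, with a median of 0.01. Chmp3 fell by 0.42 ± 0.06 (edgeR adjusted p = 2.38e-08) and Pdcd6ip by 0.21 ± 0.05 (edgeR adjusted p = 0.00054), while Vps4b rose by 0.23 ± 0.06 (edgeR adjusted p = 0.00129) and Pdcd6 by 0.24 ± 0.08 (edgeR adjusted p = 0.00858). The Pdcd6 call was lost without PBS 1d replicate 1 (adjusted p = 0.0674) or LPS 1d replicate 1 (adjusted p = 0.172).

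Downstream of the cytokines, the interleukin-1 receptor gene Il1r1 rose from 6.28 ± 0.56 to 18.3 ± 1.1 CPM at 1 day (SD, n = 3), a log2 change of 1.54 ± 0.13 (edgeR adjusted p = 1.35e-14). Its partner Il1rap rose by 0.34 ± 0.07 (edgeR adjusted p = 2.37e-05), and the alarmin Il33, a glial cytokine of the same family, fell by 0.69 ± 0.08 (edgeR adjusted p = 4.53e-10), from 35.5 to 22.0 CPM. The decoy receptor Il1r2 had 27 counts after PBS, 51 at 1 day and 22 at 7 days. Over the list 2 of 7 tested rose and 1 fell at 1 day, beside 24.9% and 24.2% of all tested genes.

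Among genes of necroptosis and other death, 4 of 7 tested rose and 2 fell at 1 day, or 2 and 2 of 5 without Zbp1 and Mlkl. The shares over all tested genes were 24.9% and 24.2%. Zbp1, a nucleic acid sensor upstream of several death pathways, went from 14 counts after PBS to 197 at 1 day and 15 at 7 days, and Mlkl, the pore former of necroptosis, had 17, 67 and 11. Ripk1 rose by 0.66 ± 0.14 (edgeR adjusted p = 7.31e-05). Sarm1, an axonal NAD hydrolase, fell by 0.32 ± 0.07 (edgeR adjusted p = 6.36e-05), and Ninj2, the relative of Ninj1, fell by 1.96 ± 0.47 (edgeR adjusted p = 0.000514), from 1.39 to 0.359 CPM.

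**Figure D4:**
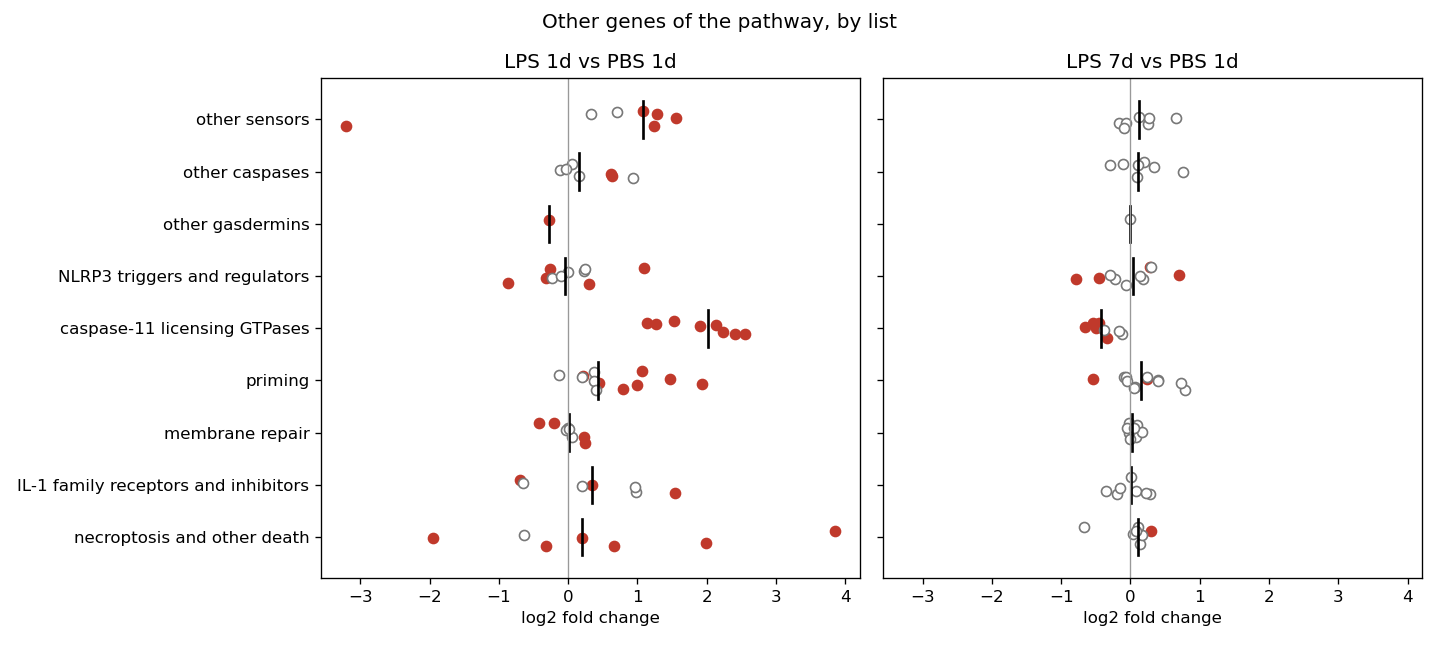
Log2 fold change (horizontal axis) of the 67 other pathway genes tested, by list, for LPS 1d and LPS 7d against PBS 1d. Red points passed the edgeR threshold, open points did not, and black bars are list medians. At LPS 1d all 8 GTPases of the caspase-11 list are red and right of 0, and at LPS 7d 5 of them are red and left of 0.

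Microglial markers, which define the cells best known for these genes, summed to similar levels in the 3 groups: 306 to 327 CPM after PBS, 310 to 324 CPM at 1 day and 301 to 309 CPM at 7 days after LPS. At 1 day 3 of the 14 rose, 4 fell and 7 did not pass, where 24.9% of all tested genes rose and 24.2% fell. The similar sums thus hide opposite changes from PBS to 1 day. On average P2ry12 went from 31.4 to 15.4 CPM and Gpr34 from 7.12 to 2.48 CPM, while C1qa went from 23.3 to 44.0 CPM and Fcrls from 4.75 to 7.49 CPM. Monocyte and macrophage markers summed to 12.98 to 14.4 CPM after PBS, 15.1 to 15.6 CPM at 1 day and 12.5 to 17.3 CPM at 7 days. Of 5 tested, 1 rose and 1 fell at 1 day, beside 24.9% and 24.2% of all tested genes. At 7 days against PBS 2 rose and 1 fell, beside 16.8% and 18.9%. Their sum hides opposite changes: Lyz2 had 1.61, 3.55 and 5.49 CPM on average, Itgal 0.605, 0.952 and 2.35 CPM, and Cd163 6.52, 4.08 and 2.59 CPM. Neutrophil markers summed to 2.34 to 3.20, 2.37 to 3.78 and 2.34 to 4.04 CPM, of which Mmp9 made up 2.25, 2.40 and 2.67 CPM on average. The neutrophil genes Ly6g and Elane were at 0 in all 9 libraries, as was Cd3d of T cells. The T, B and NK cell list summed to 15.6 to 18.3, 9.13 to 10.5 and 5.15 to 5.92 CPM, of which Cd4 made up 16.3, 9.62 and 4.78 CPM on average. Endothelial markers summed to 285 to 297, 320 to 335 and 344 to 361 CPM, pericyte and mural markers to 259 to 269, 280 to 291 and 381 to 394 CPM, and astrocyte markers to 3662 to 3757, 4356 to 4387 and 4120 to 4189 CPM. Oligodendrocyte markers summed to 7205 to 7558, 7167 to 7200 and 9596 to 10215 CPM, and neuronal markers to 5779 to 5898, 6063 to 6099 and 5597 to 5671 CPM. At 1 day against PBS 5 of 10 tested endothelial markers rose and 4 fell, and of 7 mural markers 4 rose and 0 fell. Of 8 astrocyte markers 5 rose and 2 fell, of 8 oligodendrocyte markers 1 and 6, and of 9 neuronal markers 4 and 4. Of all tested genes 24.9% rose and 24.2% fell. A choroid plexus and ependyma list, written after the data were seen, summed to 438 to 501, 451 to 471 and 349 to 361 CPM. The part of these lists in the changes of the 10 genes was not tested.

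**Figure D5:**
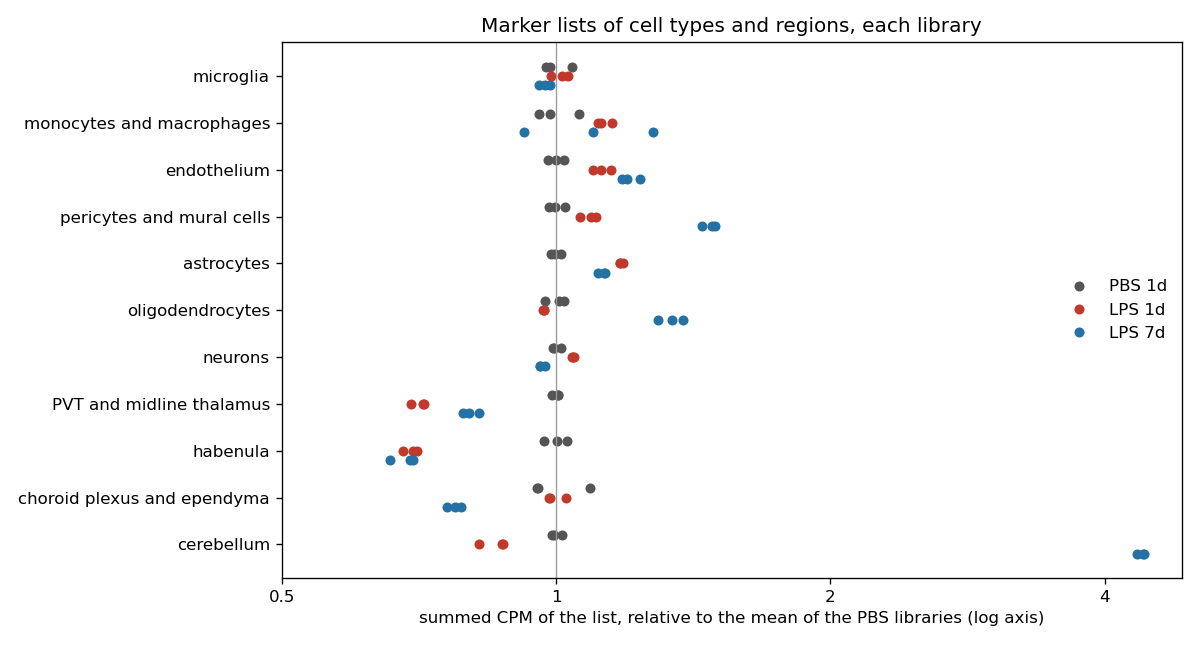
Summed CPM of 11 marker lists in each library, relative to the mean of the PBS 1d libraries (log axis), for the 3 groups. Microglial sums overlap between PBS 1d and LPS 1d, PVT and habenula sums are lower in both LPS groups, and cerebellar sums are higher at LPS 7d.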

How the data were processed

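RNA sequencing of PVT tissue from 9 libraries was analysed. Trizol extraction of total RNA and TruSeq libraries are stated per the labels' protocols. The authors deposited raw counts per gene. Submitters' processing notes name TopHat2, HISAT2, HTSeq and GRCm39. Which aligner made the counts is not given in the sources used here, nor is a version or the strandedness. The authors' FPKM values recompute from the deposited counts, lengths and totals to within 1.58e-07 and were used only to compare levels between genes. The other deposited columns, gene length, position and name, were used as they stand.

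Of 21899 genes, 3516 had no count and 14837 passed filterByExpr of edgeR 4.0.16 (about 0.629 CPM in 3 libraries). All 9 libraries entered 1 quasi-likelihood fit with 1 mean for each group and with TMM factors from 0.983 to 1.03. The common biological coefficient of variation was 4.15%, with 43.4 prior and 6 residual degrees of freedom, so that each gene's spread was drawn strongly toward the trend. Tests were two-sided. SE is the log2 change divided by the square root of F. Intervals of count ratios are exact conditional binomial and, like the allowance of 3 counts for a 0, cover counting error only. Libraries of a group varied beyond sampling noise, with a chi-square of 2.01 to 3.62 per degree of freedom.

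The method was tested on simulated data. It recovered 73.7% to 76.8% of log2 changes of 0.5 and 87.8% to 92.9% of log2 changes of 1. Each comparison had 10 to 14 false calls. In the simulation 97 to 99 genes of each size were changed among 14671 or 14685, far fewer than were called in these data. The 10 genes, the lists and the comparisons were chosen with earlier results of these data known, and the habenula and choroid plexus lists were added later. Text names all 10 genes, up to 4 genes per pathway list by p-value at 1 day and up to 2 that changed against their list, and the 3 genes most correlated with a tested gene. Pydc3, Pydc4 and Gm12250 were not matched. RefSeq promoter windows are on GRCm38.p6. They were matched by symbol and their coordinates were not compared with those of the counts. Alternatives were other scalings, filters and tools, a fit of 2 groups, a replicate block and leaving out each library.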

Additional observations from a re-analysis of the deposited data

How the results depend on the processing

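With RLE or upper-quartile factors, library totals only, DESeq2, no filter or at least 1 CPM in 3 libraries, a fit of only the groups compared, and a replicate block, edgeR or DESeq2 called the same number of the 10 genes: 5 at 1 day against PBS, 1 at 7 days against PBS and 4 at 7 days against 1 day. Leaving out each library in turn gave 5 to 6, 1 to 1 and 4 to 5 calls, and the gains are the Gsdmd and Il18 values given above. In every refit the counts at 1 day against PBS and at 7 days against 1 day include Casp4. It entered the main fit only through its LPS 1d libraries, so its calls are not a result. Of the other 8 tested genes the main fit called 3 risen and 1 fallen at 1 day against PBS, and 3 fallen at 7 days against 1 day. Over all genes, leaving out a library gave 6371 to 7484, 4629 to 5304 and 7584 to 8531 calls, beside 7289, 5287 and 8399, and over the pathway lists 37 to 42, 8 to 15 and 34 to 40, beside 41, 12 and 38. With library totals only, 3183 genes rose and 2326 fell at 7 days against PBS, beside 2489 and 2798, and 8 and 6 pathway genes, beside 4 and 8. In the fit of only PBS and LPS 7d libraries Casp4 was not tested. The labels give the same numbers 1 to 3 in each group, and same-numbered libraries deviated together little (correlations of -0.02 to 0.01, -0.02 to 0.03 and 0.02 to 0.03). Libraries correlated best with their own number in 0, 1 and 3 of 3 cases, as a hint only. With 3 libraries a group these values cannot decide whether the numbers pair them, and the main fit used no pairing. With the replicate block 7144, 5139 and 8270 genes and 5, 1 and 4 of the 10 were called. Among single genes, 21 values near 0 changed sign in 53 refits, none with a call in either fit. Without single libraries, log2 changes at 1 day against PBS ranged Casp1 -0.24 to 0.36, Ninj1 -0.16 to 0.033, Nlrc4 -0.22 to 0.17. Without single libraries, log2 changes at 7 days against PBS ranged Casp8 -0.012 to 0.29, Cd14 -0.25 to 0.093, Chmp3 -0.069 to 0.041, Gsdmd -0.16 to 0.30, Gsdme -0.042 to 0.046, Naip1 -0.47 to 0.37, Ninj1 -0.057 to 0.071, Ninj2 -0.11 to 0.41, Nlrp1a -0.34 to 0.11, Nlrp3 -0.51 to 0.068, Pycard -0.49 to 0.024, Vps4b -0.030 to 0.019. Without single libraries, log2 changes at 7 days against 1 day ranged Casp1 -0.16 to 0.45, Casp12 -0.43 to 0.31, Casp2 -0.012 to 0.067, Ninj1 -0.038 to 0.15, Nlrc4 -0.36 to 0.015, Pdcd6 -0.13 to 0.034. Other settings, all against PBS, gave with upper-quartile factors, Nlrc4 -0.020 at 1 day; with library totals only, Nlrc4 -0.017 at 1 day, Ninj1 0.034 at 7 days, Chmp3 0.021 at 7 days, Gsdme 0.032 at 7 days, Vps4b 0.033 at 7 days; with no count filter, Ninj1 0.0037 at 7 days, Gsdme 0.0015 at 7 days, Vps4b 0.0033 at 7 days; with at least 1 CPM in 3 libraries, Ninj1 0.0082 at 7 days, Gsdme 0.0058 at 7 days, Vps4b 0.0076 at 7 days; with only the 2 groups compared, Ninj1 0.0014 at 7 days, Vps4b 0.00083 at 7 days. Low counts limit Nlrp3 (41, 101 and 34 counts), Nlrc4, Casp1, Casp4, Gsdmd and Il1b. For Il1b, leaving out single libraries moved the 1-day ratio between 4.36 and 9.50, except that without PBS 1d replicate 2, which holds both PBS counts, it stood at 13 against 0 counts and has no upper end. The exact test cannot reach the threshold.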

Other observations

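Genes of interleukin-18 and interleukin-1 signalling that were too low to be tested are given as summed counts, and were chosen after their values were seen. Il18rap, a subunit of the interleukin-18 receptor, had 2 counts in the PBS libraries, 39 at 1 day after LPS and 5 at 7 days. Il18r1, the other subunit, had 5, 7 and 0 counts. Il1rn, the interleukin-1 receptor antagonist, had 1, 23 and 1 counts. Il18bp, which neutralises interleukin-18, was tested and did not pass at 1 day (0.21 ± 0.13, edgeR adjusted p = 0.204), with 7.74 ± 0.42 CPM after PBS, 8.94 ± 0.86 CPM at 1 day and 7.79 ± 0.40 CPM at 7 days (SD, n = 3). In a fit without the count filter, where Il1b enters, its log2 difference at 1 day against PBS was 2.53 ± 1.19 (edgeR adjusted p = 0.0757).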
